A study of Rattus with 6 samples.

Results

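Collagen chains are the gene products that wind together, 3 at a time, into the triple helices of the extracellular matrix. They were followed in rat bone marrow mesenchymal stem cells (BMSC), the adherent stromal cells of marrow with the capacity to become osteoblasts, adipocytes or chondrocytes. The cells had been cultured for 4 days with 100 uM dexamethasone, a synthetic glucocorticoid, or without it. The chains were taken as every gene of the deposited count table whose symbol has the form Col, a type number, the letter a and a chain number. That rule found 42 of the 30211 genes in the table. From general knowledge they were grouped into 10 fibrillar chains, 6 basement membrane chains, 9 FACIT chains (fibril-associated collagens with interrupted triple helices) and 17 other chains. No row carried the symbol Col1a2, Col6a3 or Col21a1, and these chains were not analysed here. Gene expression had been measured by RNA sequencing in 3 dexamethasone libraries and 3 control libraries, all from wild-type cells whose labelled tissue is bone. The labels do not say whether the controls received vehicle, nor whether replicates were separate cultures or animals. P-values therefore rest on the spread among these libraries alone, which may be technical.

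Fibrillar collagens form the tensile fibrils of bone, tendon, skin and vessel walls, and type I is the main protein of bone matrix. FACIT collagens sit on the surface of such fibrils, type IV collagen builds the sheet-like network of basement membranes, and type VI builds beaded filaments around cells. A collagen molecule can hold 3 copies of a single chain or a mixture of chains, so the relative levels of partner chains bear on which molecules can be made. Marrow stromal cells are a known source of types I, III, V and VI, and glucocorticoids are known to act on collagen genes in connective tissue.

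The tag for treatment in the labels read DEX for all samples, so libraries were grouped by their titles. Fkbp5, a co-chaperone induced through the glucocorticoid receptor, had 1290, 1390 and 1430 CPM (counts on a common library scale, after TMM correction for library composition) in the dexamethasone libraries and 69.0, 71.0 and 69.3 CPM in the control libraries. Library totals lay between 34835072 and 41676315 counts. All 8 markers listed for marrow stroma were detected in both groups. Thy1, the 1 not called, averaged 134 CPM with dexamethasone and 133 CPM in controls. Pdgfra and Nt5e rose (log2 0.69 and 0.60), and Pdgfrb, Cd44, Vcam1, Itgb1 and Eng fell (log2 -2.17, -0.59, -0.45, -0.42 and -0.20). The largest of these changes was in Pdgfrb, at 137 CPM with dexamethasone and 616 CPM in controls. In bulk libraries such as these, fewer cells of a type and less RNA per cell cannot be told apart.

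Collagen expression was redistributed among chains, with rises and falls inside most classes. Of 28 chains with enough counts to test, 24 differed between the groups at an adjusted p below 0.05, of which 10 rose and 14 fell with dexamethasone (edgeR's quasi-likelihood test, Benjamini-Hochberg over 14111 genes). The 2 groups had no overlap in 25 tested chains, where that held for 66.9% of all tested genes. The calls made up 85.7% of the tested chains, where 64.0% of all tested genes were called, 32.3% higher and 31.7% lower. Changes of at least 2-fold were called in 13 chains, 4 higher and 9 lower, against 15.6% of all tested genes. The median size of change was 0.97 on the log2 scale over the tested chains, against 0.31 over all tested genes, while the signed medians were -0.20 and about 0. Col6a5 and Col23a1 passed the filter on low counts through the control libraries alone, so their calls follow in part from the filter, and the counts above describe the tested chains and not all 42.

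**Figure D1:**
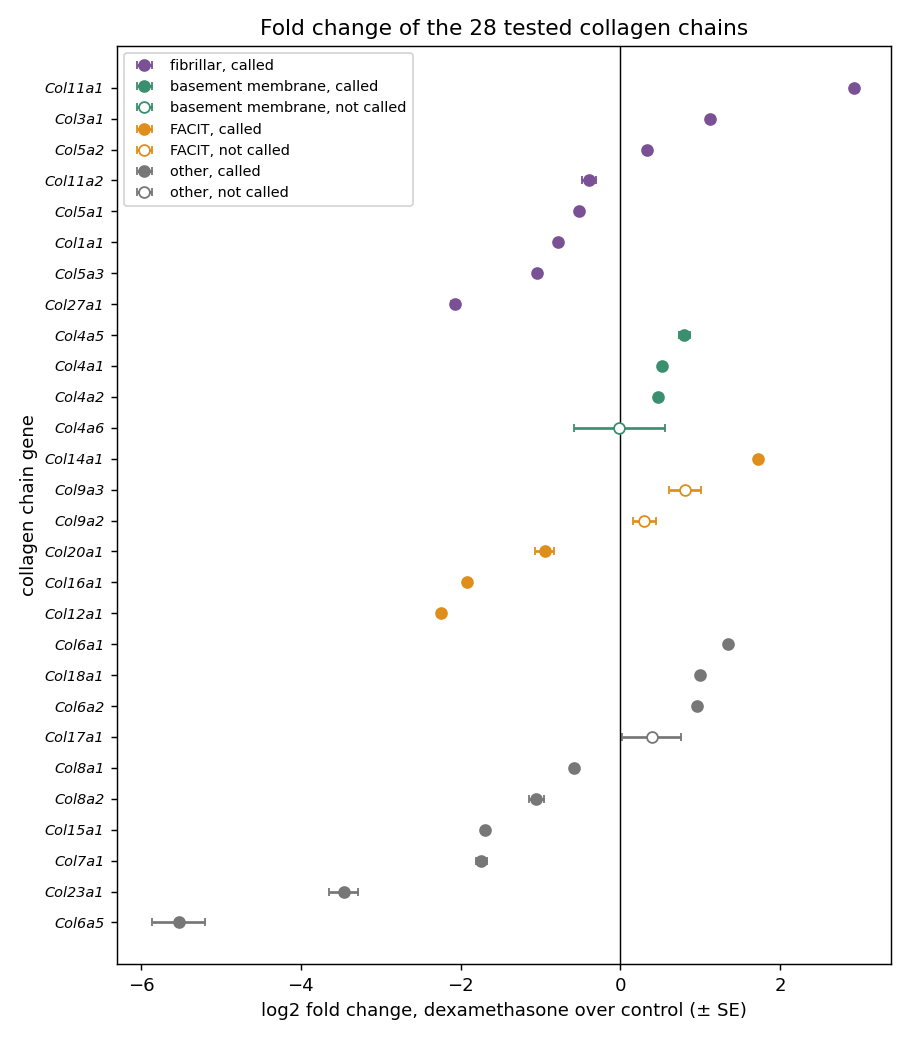
Log2 fold change, dexamethasone over control, of the 28 tested collagen chains (x axis) by chain (y axis), coloured by class, with bars of ± 1 SE from the spread between 3 replicates a group. Filled points are called at an adjusted p below 0.05 and open points are not. Fibrillar, FACIT and other chains lie on both sides of 0, from 2.92 for Col11a1 to -5.53 for Col6a5, and the 3 called basement membrane chains lie above it.

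Among fibrillar chains 3 rose and 5 fell. The rises included Col3a1, which had the highest level per length of the chains analysed in the dexamethasone libraries. Col3a1, the single chain type of type III collagen in reticular fibres and vessel walls (chromosome 9, 52023295 to 52059217), had 4485, 4242 and 4313 CPM with dexamethasone, against 2035, 1972 and 1982 CPM in controls. All 3 dexamethasone libraries lay above all 3 controls, a log2 fold change of 1.12 ± 0.028 (SE), or 2.18-fold (adjusted p = 6.2e-36, edgeR's quasi-likelihood test). Col3a1 shares 141 exon bases on the same strand with AABR07067556.1, so reads there cannot be assigned to either gene alone. Col11a1, a chain of type XI collagen that limits the width of fibrils in cartilage and elsewhere (chromosome 2, 216863428 to 217056523), had 1112, 1107 and 1097 CPM with dexamethasone and 147, 147 and 143 CPM in controls. It had the largest rise of any tested collagen chain, 7.59-fold (log2 2.92 ± 0.015, adjusted p = 1.3e-49). Col5a2, a chain of type V collagen, which starts the assembly of type I fibrils (chromosome 9, 52092511 to 52238564), had 4008, 3858 and 3889 CPM with dexamethasone and 3143, 3078 and 3115 CPM in controls. The groups did not overlap, but the change was small, at 1.26-fold (log2 0.33 ± 0.019).

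The fibrillar chains that fell included the main chain of bone collagen. Col1a1, a chain of type I collagen (chromosome 10, 82745801 to 82762789), had 671, 668 and 655 CPM with dexamethasone and 1156, 1124 and 1134 CPM in controls, 1.71-fold lower (log2 -0.78 ± 0.016, adjusted p = 3.6e-29). Col5a1, the partner of Col5a2 in type V collagen (chromosome 3, 6430201 to 6578882), had 575, 581 and 592 CPM with dexamethasone and 832, 828 and 838 CPM in controls (log2 -0.51 ± 0.013). Type V thus had chains on both sides, since Col5a2 rose while Col5a1 fell. Col5a3, a less common chain of the same type (chromosome 8, 21786324 to 21831668), also fell, with 19.996, 20.1 and 19.2 CPM with dexamethasone and 40.3, 40.3 and 42.1 CPM in controls (log2 -1.05 ± 0.029). Col27a1, a fibrillar collagen of cartilage (chromosome 5, 79055521 to 79170765), fell the most of the fibrillar chains, with 26.5, 26.2 and 28.8 CPM under dexamethasone and 111, 114 and 118 CPM in controls, 4.21-fold lower (log2 -2.07 ± 0.050). Col11a2, a partner of Col11a1 in cartilage type XI collagen, went the other way from it, at 7.04, 7.18 and 6.65 CPM with dexamethasone and 8.17, 9.50 and 9.75 CPM in controls (log2 -0.40 ± 0.086, adjusted p = 6.1e-04). All of these falls separated the groups in every library. The calls of Col5a1, Col5a2 and Col11a2 were lost when tested against a fold change of 1.5 (adjusted p = 1 for each) and at a coefficient of variation of 0.2 (adjusted p = 0.0977, 0.354 and 0.268), against the 3.66% estimated from these libraries.

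**Figure D2:**
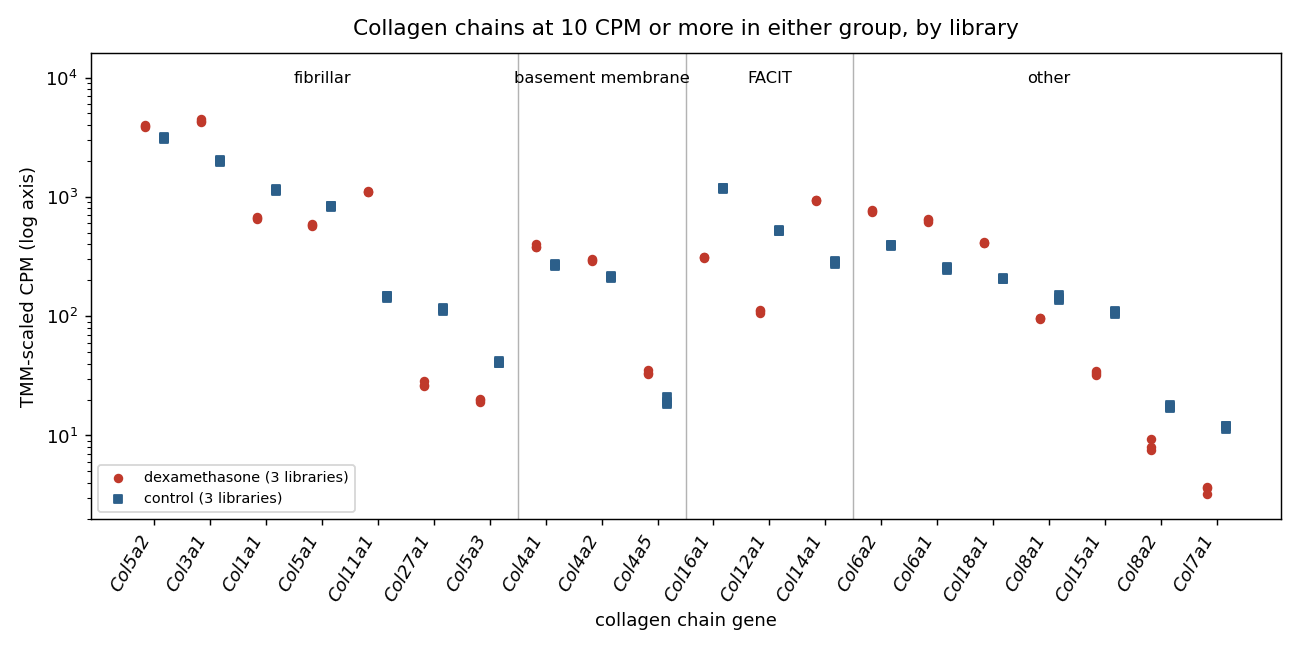
TMM-scaled CPM on a log axis (y axis) of the 20 collagen chains with a mean of at least 10 CPM in either group (x axis), with 1 point for each of 3 dexamethasone and 3 control libraries. Libraries of a group lie close together. For each of the 20 chains the groups do not overlap, where that held for 66.9% of all tested genes, at any level. Col11a1 sits near 1105 CPM with dexamethasone and 146 CPM in controls, and Col16a1 near 311 and 1177 CPM.

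Well-expressed FACIT chains moved in opposite directions, with 1 rise and 2 falls of more than 3-fold. Col14a1, which coats fibrils in tendon, skin and other dense tissue (chromosome 7, 95074236 to 95273298), had 916, 938 and 937 CPM with dexamethasone, against 286, 288 and 273 CPM in controls. It rose 3.30-fold (log2 1.72 ± 0.028, adjusted p = 5.5e-41). Col12a1, its close relative on fibril surfaces (chromosome 8, 87040799 to 87158368), had 105, 111 and 113 CPM with dexamethasone and 523, 518 and 513 CPM in controls, 4.72-fold lower (log2 -2.24 ± 0.030, adjusted p = 9.0e-44). Col16a1, a FACIT collagen of skin and cartilage (chromosome 5, 148257642 to 148311645), had 313, 310 and 312 CPM with dexamethasone and 1184, 1158 and 1189 CPM in controls. Its fall was 3.78-fold (log2 -1.92 ± 0.012, adjusted p = 1.0e-43). Per length, Col14a1 stood at 340 ± 4.43 TPM (counts scaled by exon length and then to a common sum per library) with dexamethasone and 103 ± 3.05 TPM in controls, and Col16a1 at 117 ± 0.626 and 443 ± 6.55 TPM (SD, n = 3 each). The order of these chains by level was therefore the opposite in the groups. Col20a1 was called lower at a low level, 1.40 ± 0.101 CPM with dexamethasone and 2.69 ± 0.338 CPM in controls (SD, n = 3 each; log2 -0.95 ± 0.12). The type IX chains Col9a2 and Col9a3, partners of type II fibrils in cartilage, stood at 2.24 ± 0.343 and 0.667 ± 0.126 CPM with dexamethasone and 1.81 ± 0.136 and 0.382 ± 0.070 CPM in controls. Neither passed (adjusted p = 0.177 and 0.0526, edgeR's quasi-likelihood test), although Col9a3 did with library size alone in place of TMM (adjusted p = 0.0421).

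Basement membrane chains that were well expressed all rose, by less than 2-fold. Col4a1 and Col4a2 together build the common type IV network found under endothelium and around many cells. Col4a1 (chromosome 16, 83522162 to 83632153) had 381, 377 and 400 CPM with dexamethasone and 271, 268 and 265 CPM in controls, 1.44-fold higher (log2 0.52 ± 0.029). Col4a2 (chromosome 16, 83387364 to 83438561) had 298, 288 and 302 CPM with dexamethasone and 219, 210 and 213 CPM in controls, 1.38-fold higher (log2 0.47 ± 0.027). The values of each chain separated the groups in every library. Col4a5, a chain best known from the kidney filter (chromosome X, 112769645 to 112983685), had 35.7, 33.5 and 32.9 CPM with dexamethasone and 19.3, 21.0 and 18.4 CPM in controls, 1.74-fold higher (log2 0.80 ± 0.067, adjusted p = 9.9e-16). Col4a6 lay near the detection floor of 6 counts, with 27 counts in all in each group, and was not called (adjusted p = 0.987). Col4a1 and Col4a2 were not called against a fold change of 1.5 (adjusted p = 1 for both) or at a coefficient of variation of 0.2 (adjusted p = 0.0893 and 0.147). Endothelial markers were listed because type IV collagen is abundant under endothelium. They summed to between 1.47 and 2.02 CPM with dexamethasone and between 1.45 and 2.10 CPM in controls, with Emcn at 0 in all libraries. Of the 2 tested, Tek was called higher (log2 0.81) and Vwf lower (log2 -2.15), where 64.0% of all tested genes were called. Pecam1, also listed, had no row.

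Type VI collagen, the beaded filament around connective tissue cells, rose in both of its major chains measured. Col6a1 (chromosome 20, 12658065 to 12675561) had 649, 641 and 621 CPM with dexamethasone and 245, 252 and 257 CPM in controls, 2.54-fold higher (log2 1.34 ± 0.028, adjusted p = 1.7e-36). Col6a2 (chromosome 20, 12773427 to 12801180) had 760, 782 and 750 CPM with dexamethasone and 389, 398 and 398 CPM in controls, 1.93-fold higher (log2 0.95 ± 0.021, adjusted p = 1.1e-31). The minor chain Col6a5, which passed the filter through the control libraries alone, went the other way: 2 counts in all with dexamethasone against 109 in controls. Counted as read pairs (each group's counts divided by 2 and rounded up), the control to dexamethasone ratio was 55.0, with an exact 95% binomial interval from 9.47 to 2212 that covers counting error only. Its fitted log2 fold change of -5.53 rests on the 2 counts, both in dexamethasone replicate 3, and came to -8.18 without that library, where dexamethasone held no count and the value depends on the prior count.

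The 2 multiplexins, collagens of the basement membrane zone with interrupted helices, parted. Col18a1, the precursor of endostatin (chromosome 20, 12225202 to 12332858), had 411, 410 and 416 CPM with dexamethasone and 210, 205 and 205 CPM in controls, 1.999-fold higher (log2 0.999 ± 0.013, adjusted p = 1.3e-31). Col15a1 (chromosome 5, 62840360 to 62950240) had 34.8, 33.1 and 32.2 CPM with dexamethasone and 110, 109 and 105 CPM in controls, 3.23-fold lower (log2 -1.69 ± 0.039, adjusted p = 6.7e-34). The values of each gene separated the groups in every library.

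Short-chain and anchoring collagens that were called fell, as did Col23a1, the only transmembrane chain called. Col23a1 passed the filter on low counts through the control libraries alone, so its call follows in part from the filter. Col8a1, a chain of the open lattice of type VIII collagen of vessel wall and cornea (chromosome 11, 44877859 to 45007891), had 95.6, 96.6 and 95.8 CPM with dexamethasone and 150, 137 and 143 CPM in controls (log2 -0.58 ± 0.036). Its partner Col8a2 (chromosome 5, 144308611 to 144335172) had 9.41, 7.57 and 8.08 CPM with dexamethasone and 17.8, 17.03 and 17.3 CPM in controls (log2 -1.05 ± 0.094). The call of Col8a1 was lost against a fold change of 1.5 (adjusted p = 0.973) and at a coefficient of variation of 0.2 (adjusted p = 0.0540). Col7a1, the anchoring fibril chain that fastens skin to its basement membrane (chromosome 8, 117694605 to 117726844), had 3.65, 3.20 and 3.67 CPM with dexamethasone and 12.03, 11.4 and 11.99 CPM in controls, 3.35-fold lower (log2 -1.74 ± 0.069). Among transmembrane collagens, Col23a1 had 6 counts with dexamethasone against 70 in controls, a control to dexamethasone ratio of 11.7 by read pairs (exact 95% binomial interval 3.68 to 59.3). Col17a1, of the hemidesmosome, was not called (60 counts with dexamethasone and 46 in controls, adjusted p = 0.410).

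The other 14 chains did not pass the filter on low counts and were not tested, and none had more than 13 counts in a library. They included Col2a1 and Col10a1, the hallmark collagens of cartilage and of hypertrophic cartilage, with 2 and 20 counts in all with dexamethasone and 4 and 21 in controls. Col9a1 and Col26a1 were at 0 counts in every library, and with the floor taken as 6 counts (3 read pairs) a level of up to 0.170 CPM is possible in the shallowest. Col24a1, a fibrillar chain of developing bone, had 25 counts with dexamethasone and 1 in controls, a ratio of 13.0 by read pairs (exact 95% binomial interval 1.95 to 552). That ratio is lower than the counts give, because the 1 control count was rounded up to a whole pair. With no filter on low counts it was called higher (adjusted p = 0.0031, edgeR's quasi-likelihood test). Of 5 markers of cartilage cells, 2 were tested, Sox9 and Acan, and both fell, where 31.7% of all tested genes were called lower. The list summed to between 3.57 and 3.91 CPM with dexamethasone and between 27.5 and 29.2 CPM in controls, mostly Sox9. Among the untested, Matn3 and Hapln1 averaged 0.235 and 0.136 CPM with dexamethasone and 0.119 and 0.069 CPM in controls. Comp averaged 0.027 CPM with dexamethasone and 0.169 CPM in controls. The osteoblast markers summed to at most 0.616 CPM with dexamethasone and 0.674 CPM in controls, with Sp7 at 0. The part of these cell types in the collagen values was not tested.

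Levels of different chains were compared as TPM, from counts divided by the summed exon length given in the table. The 42 chains together made up 1.51%, 1.47% and 1.48% of all counts in the dexamethasone libraries and 1.10%, 1.07% and 1.09% in the control libraries, and their summed TPM was 5986 ± 88.6 with dexamethasone and 4314 ± 40.4 in controls (SD, n = 3 each). The total was therefore higher in every dexamethasone library (exact permutation test, two-sided, p = 0.1, the smallest that 3 against 3 allows). Col3a1 supplied 30.0% ± 0.441 of collagen TPM with dexamethasone and 19.1% ± 0.171 in controls, and Col5a2 28.8% ± 0.172 and 31.7% ± 0.055. Col1a1 made up 3.76% ± 0.049 with dexamethasone and 8.93% ± 0.050 in controls. Chains with no row under their symbol, Col1a2 and Col6a3 among them, are outside these totals and the shares and rankings drawn from them. Whether rows under other names hold their counts was not resolved.

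By class, fibrillar chains made up 70.5% ± 0.459 of collagen TPM with dexamethasone and 67.8% ± 0.146 in controls, and the other chains 17.4% ± 0.312 and 13.2% ± 0.142. FACIT chains held 8.03% ± 0.199 with dexamethasone and 14.96% ± 0.024 in controls. Basement membrane chains held 4.08% ± 0.114 and 3.98% ± 0.032, which overlapped between groups (exact p = 0.2) but did not with counts not divided by length (0.31 percentage points higher with dexamethasone, exact p = 0.1), while the groups did not overlap for the remaining classes, where p was 0.1, the smallest possible. The fibrillar difference of 2.71 percentage points was 5.77 without Col5a2 and 5.47 with counts not divided by length, and the FACIT difference of -6.92 was -10.6 without Col5a2. The share of Col3a1 alone was 10.9 percentage points higher with dexamethasone, more than that of the fibrillar class as a whole. Class shares without Col3a1 were not computed, so the direction of the fibrillar difference may rest on that chain. Within FACIT chains, Col16a1 held 1.96% ± 0.021 of collagen TPM with dexamethasone and 10.3% ± 0.096 in controls, and Col14a1 held 5.69% ± 0.156 and 2.40% ± 0.078. In order of mean TPM, dexamethasone libraries ran Col3a1, Col5a2, Col6a2, Col6a1, Col14a1 and Col11a1, and controls Col5a2, Col3a1, Col16a1, Col1a1, Col5a1 and Col6a2. Within that order, Col6a2 and Col6a1 stood within their spread of each other with dexamethasone, at 407 ± 8.21 and 407 ± 9.02 TPM, as did Col4a2, Col16a1 and Col4a1, at 118 ± 3.01, 117 ± 0.626 and 116 ± 3.91 TPM. Col11a1 ranked 6th with dexamethasone and 16th in controls, and Col16a1 11th and 3rd.

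**Figure D3:**
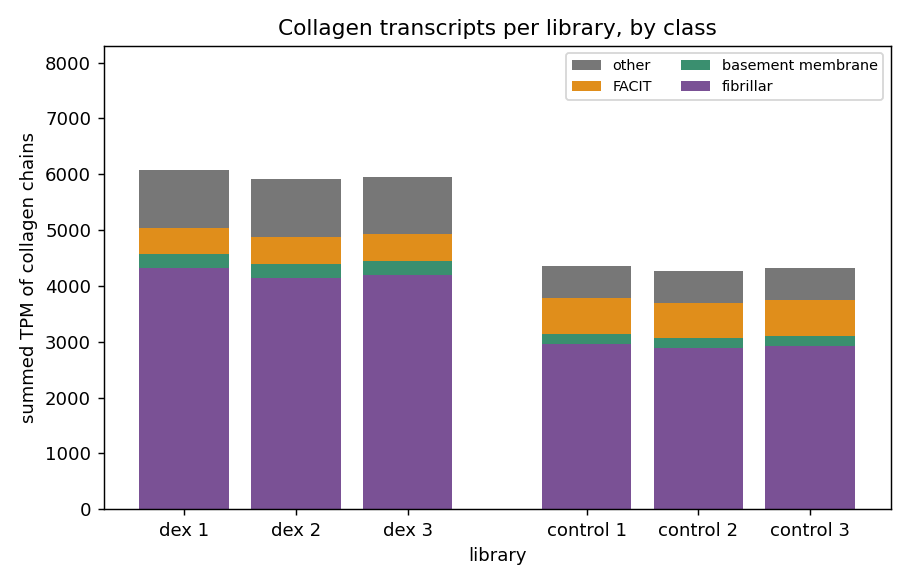
Summed TPM of the 42 collagen chains (y axis) in each of 3 dexamethasone and 3 control libraries (x axis), stacked by class. Dexamethasone bars reach between 5916 and 6085 TPM and control bars between 4272 and 4353 TPM, and the FACIT layer is thinner with dexamethasone, at 481 against 645 TPM on average.

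Partner chains were compared as per-length ratios within each library, where scaling between libraries cancels. Col4a1 and Col4a2 stood close to equal in both groups, at 0.980 ± 0.018 with dexamethasone and 0.941 ± 0.015 in controls (SD, n = 3 each). Col6a1 stood at 1.02, 0.983 and 0.992 times Col6a2 in the dexamethasone libraries and at 0.754, 0.759 and 0.773 times in the control libraries. Col5a1 stood at 0.102 ± 0.003 of Col5a2 with dexamethasone and 0.184 ± 0.002 in controls. The chains of type V were thus farther apart in the dexamethasone libraries than in controls, and those of type VI closer together. Col8a1 exceeded Col8a2 11.2 ± 1.28 times with dexamethasone and 7.99 ± 0.162 times in controls. The widest shift was between Col11a1 and Col5a1, chains known to be able to share a molecule: Col11a1 stood at 1.61 ± 0.035 times Col5a1 with dexamethasone and 0.148 ± 0.003 times in controls, a 10.8-fold change in the ratio. All 5 ratios separated the groups in every library (exact permutation test, two-sided, p = 0.1 each and adjusted over the 5 ratios p = 0.1, the smallest possible). Chosen after its values were seen, the ratio of Col3a1 to Col1a1 was 8.17, 7.77 and 8.05 with dexamethasone and 2.15, 2.14 and 2.14 in controls.

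**Figure D4:**
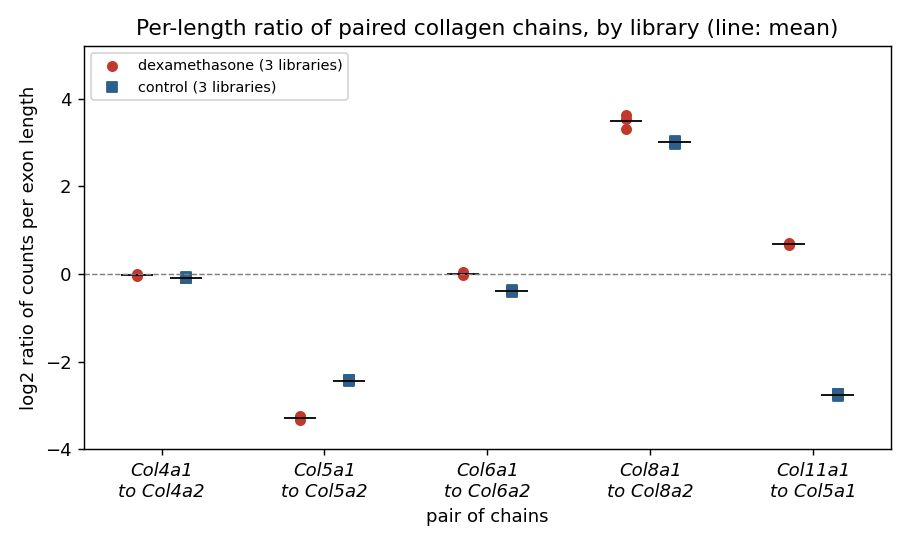
Log2 ratio of counts per exon length of 5 pairs of collagen chains (x axis, pair; y axis, log2 ratio) in each of 3 dexamethasone and 3 control libraries, with a line at each group's mean and a dashed line at equal levels. Col11a1 to Col5a1 has a mean of 0.69 with dexamethasone and -2.75 in controls, and Col6a1 to Col6a2 lies at about 0 with dexamethasone and at -0.39 in controls.

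The genes share an exon structure. Exon lengths were not used to choose them, but collagen symbols go to genes that encode the helix. The exon pattern therefore follows in part from the choice by symbol. A collagen helix is built of repeated Gly-X-Y triplets of amino acids, so an exon that holds whole triplets has a length divisible by 9 bases. In the exon coordinates of the table, 80.5% of the 609 exons of fibrillar chains had such a length and 46.3% were 54 bases long. Those shares were 51.8% and 24.0% for the 446 exons of FACIT chains, 51.7% and 6.28% for the 605 exons of other chains and 42.5% and 3.77% for the 318 exons of basement membrane chains. Among the other tested genes they were 13.1% and 0.399% of 169561 exons. Col3a1, which rose, and Col1a1, which fell, had nearly the same make-up, with 24 and 21 exons of 54 bases among 51 exons each. Col14a1 and Col12a1 had few such exons, 3 of 52 and 4 of 66, and Col16a1 had 12 of 71. The short-chain genes Col8a1 and Col8a2, with 4 exons each, had none.

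**Figure D5:**
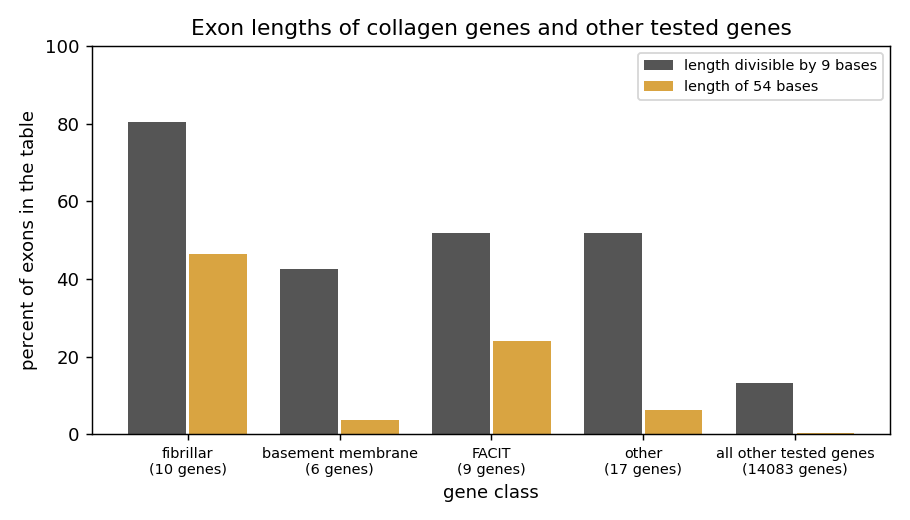
Percent of exons (y axis) with a length divisible by 9 bases and with a length of 54 bases, by collagen class and for all other tested genes (x axis), from the exon coordinates of the deposited table. Fibrillar chains stand highest on both, at 80.5% and 46.3%, against 13.1% and 0.399% in the other tested genes.

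Several chains lie near each other on the chromosome, some of them with other genes between. Col3a1 and Col5a2 lie tail to tail 33.3 kb apart with no gene between them, and both rose (log2 1.12 and 0.33). Col4a2 and Col4a1 lie head to head, 83.6 kb apart by the exons listed in the table, and both rose (0.47 and 0.52). Col6a1 and Col6a2 lie 97.9 kb apart on the same strand, with Col18a1 325 kb and 3 genes before them, and all 3 rose (1.34, 0.95 and 0.999). Col4a5 and Col4a6 also lie head to head, 296 kb and 1 gene apart by the exons listed. Col4a5 rose (0.80) while Col4a6 (-0.01), with only 27 counts in each group, was not called. Col20a1 (-0.95) fell while Col9a3 (0.80), 370 kb and 12 genes away, was not called. Coordinates are those of the table, whose rat build was not given in the sources used here.

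Genes that modify, process and bind collagen also moved both ways, given here from lists written from general knowledge. Among 25 tested maturation genes there were 12 rises, 10 falls and 3 that were not called, and their median log2 fold change was 0.06, beside 64.0% of all tested genes called, 32.3% higher and 31.7% lower. The largest rises at 10 CPM or more were Loxl3, a crosslinking oxidase, with 102 ± 2.31 CPM under dexamethasone and 28.1 ± 1.56 CPM in controls, and P4hb, a subunit of prolyl 4-hydroxylase and a protein disulfide isomerase, with 1781 ± 29.9 and 657.8 ± 9.03 CPM (SD, n = 3 each). The largest falls at that level were Tll1, a procollagen protease, with 9.46 ± 0.579 CPM under dexamethasone and 133 ± 3.59 CPM in controls, and P4ha3, a catalytic subunit of prolyl 4-hydroxylase, with 3.78 ± 0.138 and 26.6 ± 0.995 CPM. By step, hydroxylation, folding and secretion had 8 rises and 5 falls among 15 tested genes, propeptide removal 2 and 2 among 5, and crosslinking 2 and 3 among 5. Among 9 tested collagen receptors there were 2 rises, 6 falls and 1 not called, and their median was -0.71, beside the same shares of all tested genes (32.3% higher and 31.7% lower). Itga11, the alpha subunit of a receptor for type I collagen, had 0.806, 0.851 and 0.591 CPM with dexamethasone and 54.8, 53.9 and 49.5 CPM in controls, 70.5-fold lower (log2 -6.14 ± 0.16). Mrc2, which takes up collagen into cells, had 125 ± 3.35 CPM with dexamethasone and 277 ± 5.89 CPM in controls, and Ddr1, a collagen-sensing kinase, 42.2 ± 0.836 and 28.9 ± 1.21 CPM.

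Markers of other cell types gave the following summed levels beside these values. Adipocyte markers summed to between 0.397 and 0.616 CPM with dexamethasone and between 1.70 and 1.93 CPM in controls, mostly Lpl (0.268 and 1.62 CPM), with Plin1 at 0.121 and 0.017 CPM. Macrophage markers summed to between 8.65 and 9.29 CPM with dexamethasone and between 9.37 and 10.3 CPM in controls, with Adgre1 and C1qa at 0 in all libraries. Schwann cell markers summed to between 1.25 and 1.87 CPM with dexamethasone and between 2.48 and 3.01 CPM in controls, and epithelial markers to between 3.596 and 4.501 CPM and between 1.90 and 2.99 CPM. Pericyte and smooth muscle markers summed to between 231 and 236 CPM with dexamethasone and between 266 and 276 CPM in controls, with Rgs5 at 0 in all libraries. The 8 marrow stroma markers, of which 2 rose and 5 fell where 64.0% of all tested genes were called, summed to between 2665 and 2714 CPM with dexamethasone and between 3338 and 3362 CPM in controls. Their part in the collagen values was not tested.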

How the data were processed

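RNA was sequenced from 6 BMSC samples, using a kit for mRNA-seq libraries per the labels' protocols. The deposited values are raw read counts per gene, with exon coordinates and lengths, per the file headers. The authors' aligner, counter and strand setting were not given in the sources used here. The submitters' processing notes name mm10, a mouse build, but all 42 chains matched a rat gene table (assembly GRCr8) by symbol and chromosome, and 6 lie on chromosome 20, which mice lack. No sequences are printed, and the planned ratio of Col1a1 to Col1a2 was not computed.

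Of 30211 genes, 14111 passed filterByExpr. After TMM scaling, dexamethasone was tested against control in edgeR 4.0.16 (R 4.3.3) without covariates, with Benjamini-Hochberg adjustment over all tested genes. Standard errors come from log2 CPM (prior count 2). Class shares and ratios used exact permutation tests over libraries. Levels are mean ± SD. Low counts came mostly in even numbers (69.0% to 71.5% of values from 1 to 20), so the floor was 6 counts. Libraries of 1 group were not identical (chi-square per degree of freedom 2.70 to 4.16, against sampling of single reads), so none was counted as a duplicate. Counts that come in pairs also raise this value, so it cannot tell separate cultures from repeat libraries of 1 sample. Simulated data with known changes were used to test the fit, with results not given here. They were drawn with the spread of these same libraries, so they cannot show whether that spread is technical. Full values are given for called chains of at least 10 CPM and their types. The members, lists and settings were chosen with earlier results of these data known. Alternatives were DESeq2 1.42.0, no TMM, no filter, each replicate left out, a replicate block, a fold of 1.5 and a set coefficient of variation.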

Additional observations from a re-analysis of the deposited data

How the results depend on the processing

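The 24 called chains kept their call and direction with DESeq2, without TMM, without the filter, with a replicate block and without any 1 replicate. Across all genes 8570 to 8757 were called without a replicate, and 8991 with the replicate block, which called 24 chains. In their deviations from group means, same-numbered libraries correlated at 0.003, -0.008 and 0.020, and other pairs between -0.033 and 0.031. These values gave no sign of pairing by replicate number. They cannot show that the samples were unpaired, since a small shared effect could be missed. Against a fold of 1.5, 2827 genes passed (1549 higher, 1278 lower), and with the coefficient of variation set to 0.2, 3693 passed (1993 higher, 1700 lower). In both, 18 chains remained called, 7 higher and 11 lower, against 20% and 26.2% of all tested genes. The uncalled Col4a6 changed sign with library size alone (0.026) and without a replicate (-0.65 to 0.28). Without Col5a2, the most abundant chain analysed by mean TPM over all 6 libraries, the difference in basement membrane share turned to -0.11 percentage points (exact permutation test, p = 0.4). The other class differences kept their direction in the settings tried, none of which left out Col3a1. They stood at 2.47 to 2.93 (fibrillar), -6.99 to -6.81 (FACIT) and 3.93 to 4.21 (other) percentage points without a replicate. Without Col5a2 they were 5.77, -10.6 and 4.97, and with counts not divided by length 5.47, -8.78 and 2.997, against 2.71, -6.92 and 4.12 as reported; the basement membrane difference was then 0.31 by counts, against 0.093. Replicates of unknown origin and annotated exon lengths limit these values.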
